A study of Mus musculus with 76 samples.

Results

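The genes described here are 10 effectors and markers of the integrated stress response and the unfolded protein response, Ddit3, Atf3, Atf4, Trib3, Asns, Chac1, Hspa5, Xbp1, Sesn2 and Ero1a, out of 55536 genes in the deposited table. They were chosen by name, through the gene symbols that accompany the table, and all 10 were found. Their RNA was measured in 38 subcutaneous mouse tumors that fall into 7 groups of 5 to 6 tumors. CT26 is a colon carcinoma line and 4T1 a mammary carcinoma line, both from Balb/c mice, and both were grown in the flank of Balb/c mice after injection of 1000000 CT26 cells or 500000 cells of 4T1 or its derivatives.

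All tumors received 100 µg of alum, an aluminum adjuvant that anchors protein at the injection site, directly into the tumor on day 6 and were taken on day 8, counted from inoculation as the sample labels give the days; the study's text gives later days for diet, injection and harvest. Extracellular catalase (EC CAT) was 20 µg of CAT-ABP, a catalase joined to an alum-binding peptide, mixed with the alum. It was given to 6 CT26, 6 parental 4T1 and 5 4T1-CAT tumors, while alum alone was given to 5 CT26, 5 parental 4T1, 5 4T1-CAT and 6 4T1-control tumors. Intracellular catalase (IC CAT) was human catalase without its peroxisomal signal, expressed together with GFP by 4T1-CAT cells, which were transduced with a lentivirus and sorted for GFP, and 4T1-control cells carried GFP alone. Both transgenes were under a doxycycline-inducible promoter and were switched on by a doxycycline diet from day 4, so the engineered groups differ from the parental 4T1 groups by the vector and by the diet at the same time. The host tissue of each tumor did not carry the transgene. Every row of the table is a mouse gene, so the human transgene was not analysed here.

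Cells that run short of amino acids, that collect misfolded protein in the endoplasmic reticulum (ER), or that meet double-stranded RNA or heme shortage phosphorylate the translation factor eIF2 alpha, which slows protein synthesis in general but favors translation of the Atf4 transcript. The ATF4 protein switches on genes for amino acid supply and, together with its partner CHOP (the product of Ddit3), genes that decide between recovery and cell death. Misfolded protein in the ER also acts through the sensors IRE1, which splices the Xbp1 transcript, and ATF6, and both raise ER chaperones such as the product of Hspa5.

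Each tumor was represented by 2 technical libraries made by 3′ digital gene expression, which were summed, and the summed totals ran from 493044 to 9077549 counts. Levels are given as CPM, counts scaled to a library of 1000000 after TMM normalization, which corrects for library size and composition, and they are compared between tumors and not between genes. A gene passed the threshold at a Benjamini-Hochberg adjusted p of 0.05 or less over all genes tested by edgeR. The labels give each tumor as a biological replicate of its group, and 7 of the 76 libraries held under 0.25 of the median library total. Epithelial genes kept the line labels apart: the summed CPM of 7 epithelial tumor cell markers lay between 40.9 and 85.5 in the 11 CT26 tumors and between 1574 and 2892 in the 27 4T1-derived tumors. Epcam, an epithelial adhesion molecule, was at 0.975 to 5.86 CPM in CT26 tumors and at 162 to 455 CPM in 4T1-derived tumors, with the same separation for Krt8, Krt18 and Cdh1.

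Short stretches of 4 promoters are shown because they carry, in the letters alone, the elements through which the amino acid arm and the ER arm are known to act. They come from RefSeq on GRCm38.p6, from a window of 300 bases around 1 annotated start of each gene, found for all 10 genes (for Atf3 a start inside the locus printed below, not its outer end), and are written 5′ to 3′ on the strand of the gene with the matched element in capitals. For Atf3 (chr1:191183404-191183483, minus strand) and Chac1 (chr2:119351009-119351088, plus strand) the capitals mark the C/EBP-ATF response element core TTGCATCA, bound by ATF4 dimers. For Asns (chr6:7693215-7693244, minus strand) they mark the amino acid response element core TGATGAAAC, and for Hspa5 (chr2:34772020-34772047, plus strand) an ER stress element (CCAAT and CCACG with 9 bases between them), the target of ATF6 with its partner NF-Y.
Atf3: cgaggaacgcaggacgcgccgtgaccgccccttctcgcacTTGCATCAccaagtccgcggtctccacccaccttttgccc
Chac1: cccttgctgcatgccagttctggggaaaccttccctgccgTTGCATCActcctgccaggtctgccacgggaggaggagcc
Asns: gtcccagccacaTGATGAAACttcccgcac
Hspa5: cttcaCCAATCGGAGGCCTCCACGacgg

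On either strand, TTGCATCA was found in 0.895% of all 32851 promoter windows and in 2 of the 10 genes, Atf3 and Chac1. TGATGAAAC was found in 0.247% of windows and in Asns, and the full ER stress element in 0.119% of windows and in Hspa5. CCACG alone, the end of that element, was found in 32.8% of windows and in 6 of the genes (Atf4, Asns, Chac1, Hspa5, Sesn2 and Ero1a). ACGTG, the core of the hypoxia response element, was found in 19.6% of windows and in 4 of the genes (Ddit3, Asns, Hspa5 and Ero1a). The unfolded protein response element TGACGTGG, in 0.676% of windows, and the cAMP response element TGACGTCA, in 1.79%, were in none of the 10 windows. ACGTG overlaps the sequence TGACGTGG. These are matches of letters in a fixed window and not measured binding sites.

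Ddit3, Atf4, Trib3, Asns and Hspa5 separated the tumor lines without overlap, as did 9.97% of all genes tested, and the other 5 genes overlapped between lines. For Trib3 the margin was narrow, from 12.1 CPM (55 counts) in the highest 4T1-derived tumor to 12.3 CPM (62 counts) in the lowest CT26 tumor. Across the 7 groups, 8 of the 9 genes that passed the filter on low counts differed between groups, beside 54.7% of all 14646 genes tested. Chac1 did not pass (adjusted p = 0.446), and Sesn2 did not pass that filter and has no edgeR value here; without the filter it passed across the 7 groups. Xbp1 lost its call with the first index tag of the libraries as a factor and with technical replicate 1 alone. The lines differ in tissue of origin and in the cells that make up the tumor, and fewer cells of a type and less RNA per cell cannot be told apart in whole tumors.

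**Figure D1:**
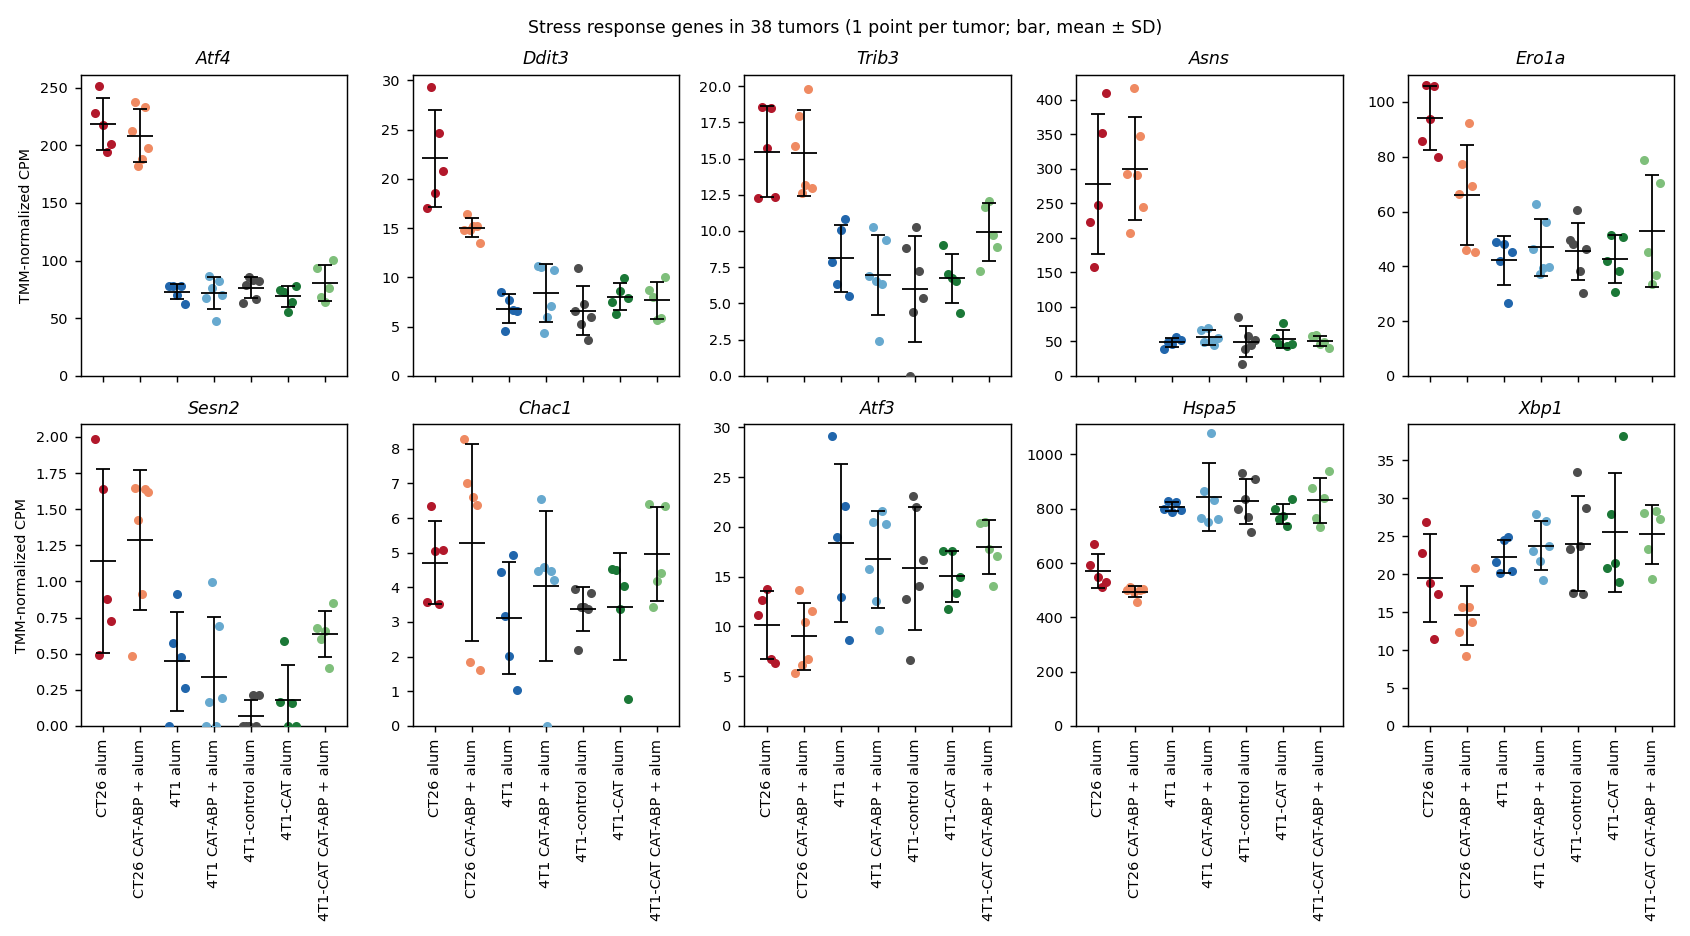
TMM-normalized CPM (y axes, one scale per gene) of the 10 genes in each of the 38 tumors, by group; each point is 1 tumor and the black bar is the group mean ± SD. Atf4, Ddit3, Trib3 and Asns were higher in every CT26 tumor than in every 4T1-derived tumor, Hspa5 was lower in every CT26 tumor, and Sesn2 stayed under 2 CPM.

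Under alum, 5 genes were higher in CT26 (Asns, Ddit3, Atf4, Ero1a and Trib3) and 2 were lower (Atf3 and Hspa5). Under CAT-ABP + alum, Asns, Atf4, Trib3 and Ddit3 were again higher and Hspa5, Atf3 and Xbp1 were lower. The first comparison therefore called 7 of 9 tested genes beside 42.4% of all genes tested, and the second called 7 of 9 beside 45.5%. By direction, the background was 21.3% higher and 21.1% lower in CT26 under alum, and 21.8% higher and 23.7% lower under CAT-ABP + alum. The tumors of the 2 comparisons are different animals, and 6 genes (Asns, Atf3, Atf4, Ddit3, Hspa5 and Trib3) passed in both with the same sign, beside 34.6% of the 12578 genes tested in both.

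Asns, on chromosome 6 (GRCm38 7675169 to 7693254, minus strand), encodes asparagine synthetase, which makes asparagine from aspartate and glutamine. The CT26 tumors under alum held 223, 157, 247, 351 and 410.0 CPM, and those under CAT-ABP + alum ran from 207 to 417 CPM with a median of 291. Parental 4T1 tumors under alum held 39.4, 49.6, 46.9, 56.3 and 51.4 CPM, and those under CAT-ABP + alum ran from 44.3 to 70.1 CPM with a median of 52.4. No 4T1 tumor reached the lowest CT26 tumor. Asns was 5.69-fold higher in CT26 under alum (log2 fold change 2.51 ± 0.23 SE, adjusted p = 3.97e-07) and 5.23-fold higher under CAT-ABP + alum (2.39 ± 0.18, adjusted p = 6.84e-09). The largest level in any 4T1-derived tumor was 85.8 CPM, in a 4T1-control tumor.

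Atf4, on chromosome 15 (80255184 to 80257541, plus strand), encodes the transcription factor at the center of the integrated stress response. CT26 tumors held 228, 251, 218, 194 and 201 CPM under alum and 182 to 237 CPM, with a median of 205, under CAT-ABP + alum. Parental 4T1 tumors held 77.7, 77.6, 70.1, 77.9 and 62.6 CPM under alum and 48.0 to 86.4 CPM, with a median of 73.1, under CAT-ABP + alum. The lines did not overlap, and the spread within each group was narrow. Atf4 was 2.99-fold higher in CT26 under alum (log2 fold change 1.58 ± 0.13, adjusted p = 1.63e-07) and 2.81-fold higher under CAT-ABP + alum (1.49 ± 0.14, adjusted p = 6.68e-08). ATF4 is controlled largely at translation, which RNA does not show.

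Ddit3, on chromosome 10 (127290774 to 127296288, plus strand), encodes CHOP, a transcription factor of the C/EBP family that ATF4 induces. Its levels were 17.1, 29.3, 18.6, 24.7 and 20.8 CPM in CT26 tumors under alum, and 13.5 to 16.5 CPM with a median of 15.04 under CAT-ABP + alum. The parental 4T1 tumors were at 8.56, 4.61, 7.67, 6.72 and 6.55 CPM under alum, and at 4.38 to 11.2 CPM with a median of 8.93 under CAT-ABP + alum. Neither pair of groups overlapped. The fold was 3.18 under alum (log2 fold change 1.67 ± 0.21, adjusted p = 1.23e-05) and 1.71 under CAT-ABP + alum (0.77 ± 0.21, adjusted p = 0.00521). The gene shares 68 bases with Mars, the methionyl-tRNA synthetase gene on the opposite strand, and whether the counting used strand is not given in the sources used here. Mars itself (Mars1 in current naming) was higher in CT26, by 0.40 on the log2 scale under alum (adjusted p = 0.0219) and by 0.44 under CAT-ABP + alum (adjusted p = 0.0161).

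Trib3, on chromosome 2 (152337422 to 152344032, minus strand), encodes a pseudokinase that CHOP and ATF4 induce and that holds AKT and ATF4 in check. CT26 tumors held 12.3, 18.6, 15.7, 18.5 and 12.3 CPM under alum and 12.6 to 19.8 CPM, with a median of 14.5, under CAT-ABP + alum. Parental 4T1 tumors held 7.87, 6.34, 10.04, 10.8 and 5.50 CPM under alum and 2.40 to 10.3 CPM, with a median of 6.72, under CAT-ABP + alum. All CT26 tumors were above all 4T1 tumors of the same treatment. The difference was 1.84-fold under alum (log2 fold change 0.88 ± 0.23, adjusted p = 0.00529) and 2.04-fold under CAT-ABP + alum (1.03 ± 0.21, adjusted p = 0.000671). With technical replicate 1 alone, the difference under alum was 0.53 on the log2 scale and did not pass (adjusted p = 0.134).

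Ero1a (named Ero1l in GENCODE M21), on chromosome 14 (45283087 to 45318771, minus strand), encodes the ER oxidase that re-oxidizes protein disulfide isomerase and passes electrons to oxygen, forming hydrogen peroxide. It was at 85.9, 106.0, 93.8, 105.8 and 79.7 CPM in CT26 tumors under alum, against 49.0, 41.8, 48.2, 26.8 and 45.1 CPM in 4T1 tumors. Under CAT-ABP + alum the CT26 tumors ran from 45.3 to 92.2 CPM with a median of 67.8, and the 4T1 tumors from 37.2 to 62.7 CPM with a median of 43.0. The alum groups stood apart and the CAT-ABP groups overlapped. Ero1a was 2.24-fold higher in CT26 under alum (log2 fold change 1.17 ± 0.17, adjusted p = 4.16e-05). Under CAT-ABP + alum the estimate was 0.45 ± 0.18 and missed the threshold (adjusted p = 0.0518). It passed in 5 of 8 alternative settings (adjusted p from 0.0261 to 0.132) and in 4 of 12 fits with 1 tumor left out, CT26 replicate 3 or 6 or 4T1 replicate 2 or 5 (adjusted p from 0.0194 to 0.137 over the 12).

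Hspa5, on chromosome 2 (34771970 to 34777547, plus strand), encodes BiP, the main ER chaperone of the HSP70 family and a repressor of the ER stress sensors. CT26 tumors held 592, 669.9, 547, 513 and 532 CPM under alum and 457 to 510.2 CPM, with a median of 501, under CAT-ABP + alum. Parental 4T1 tumors held 801, 828, 789, 823 and 796 CPM under alum and 751 to 1079 CPM, with a median of 799, under CAT-ABP + alum. The highest CT26 tumor was below the lowest 4T1-derived tumor, at 716 CPM. Hspa5 was 1.41-fold lower in CT26 under alum (log2 fold change -0.50 ± 0.14, adjusted p = 0.0108) and 1.76-fold lower under CAT-ABP + alum (-0.81 ± 0.14, adjusted p = 0.000111).

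The first index tag of the libraries, whose meaning the sources used here do not state, was shared by all CT26 tumors, the 6 4T1 tumors under CAT-ABP + alum and 2 of the 5 4T1 tumors under alum. Among tumors with those tags the alum comparison of Hspa5 kept its size but not its call (log2 fold change -0.52, adjusted p = 0.0794), while Asns, Atf3, Atf4, Ddit3, Ero1a and Trib3 passed. All tumors of the comparison under CAT-ABP + alum carried those tags.

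Atf3, on chromosome 1 (191170296 to 191218039, minus strand), encodes a stress-induced factor of the ATF/CREB family that follows ATF4 but also inflammatory and growth signals. It was at 11.1, 12.7, 13.8, 6.76 and 6.28 CPM in CT26 tumors under alum and at 29.1, 19.0, 12.96, 22.1 and 8.65 CPM in 4T1 tumors. Under CAT-ABP + alum the levels ran from 5.36 to 13.7 CPM, median 8.59, in CT26 and from 9.59 to 21.6 CPM, median 18.1, in 4T1. Both pairs of groups overlapped. Atf3 was 1.95-fold lower in CT26 under CAT-ABP + alum (log2 fold change -0.96 ± 0.24, adjusted p = 0.00324). Under alum the estimate was -0.84 ± 0.31 (adjusted p = 0.0393), and the call was lost when any 1 of 6 tumors was left out (CT26 replicate 1, 4 or 5, 4T1 replicate 1, 2 or 4), with adjusted p up to 0.117.

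Xbp1, on chromosome 11 (5520659 to 5525893, plus strand), encodes the factor activated by IRE1 splicing, and the gene counts do not separate spliced from unspliced transcript. CT26 tumors held 22.8, 26.9, 18.9, 11.5 and 17.4 CPM under alum and 4T1 tumors 21.6, 20.2, 24.5, 24.8 and 20.4 CPM. These groups overlapped and did not differ past the threshold (log2 fold change -0.21 ± 0.20, adjusted p = 0.406). Under CAT-ABP + alum Xbp1 ran from 9.17 to 20.8 CPM in CT26 and from 19.2 to 27.9 CPM in 4T1, with medians of 14.7 and 23.4, and 5 of 6 CT26 tumors lay below every 4T1 tumor. It was 1.69-fold lower in CT26 (-0.76 ± 0.17, adjusted p = 0.0017).

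Chac1, on chromosome 2 (119351229 to 119354381, plus strand), encodes a glutathione-degrading enzyme induced by ATF4, and it had few counts, with a median of 18.5 per tumor and 3 of 38 tumors at or under 3. It ran from 1.62 to 8.28 CPM in the 11 CT26 tumors and from 0 to 6.56 CPM in the 27 4T1-derived tumors, so the lines overlapped. The difference between CT26 and 4T1 was 0.55 ± 0.37 on the log2 scale under alum (adjusted p = 0.25) and 0.23 ± 0.38 under CAT-ABP + alum (adjusted p = 0.665), and the intervals reach 1.41 and 1.08. Sesn2, on chromosome 4 (132492032 to 132510501, minus strand), encodes a sestrin that restrains the growth kinase complex mTORC1. Its locus also holds the antisense-class gene Gm12981 on the same strand. It had 1 to 16 counts in CT26 tumors and 0 to 7 counts in 4T1-derived tumors, with 24 of 38 tumors at or under 3 counts, and no fold is given.

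Put in order, the means of Atf4, Ddit3, Trib3 and Asns placed both CT26 groups above the 5 groups of 4T1 origin, with no overlap at that step. Among the 5 groups of 4T1 origin, all neighbors in the order overlapped for these 4 genes and for Hspa5. Over all 38 tumors, 5 of the 9 tested genes (Ddit3, Atf4, Trib3, Asns and Hspa5) had CT26 tumors that did not overlap with 4T1-derived tumors, beside 9.97% of all genes tested. In the separate comparisons, groups did not overlap for 6 of 9 genes under alum (Ddit3, Atf4, Trib3, Asns, Hspa5 and Ero1a), beside 29.9% of all genes tested, and for 5 of 9 under CAT-ABP + alum (the same without Ero1a), beside 22.3%. For each of these, an exact permutation test (two-sided) of log2 CPM gave the smallest p the design allows. It was 0.00794 under alum and 0.00216 under CAT-ABP + alum. Groups of equal size that do not overlap always give that p, so it adds nothing to the separation.

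**Figure D2:**
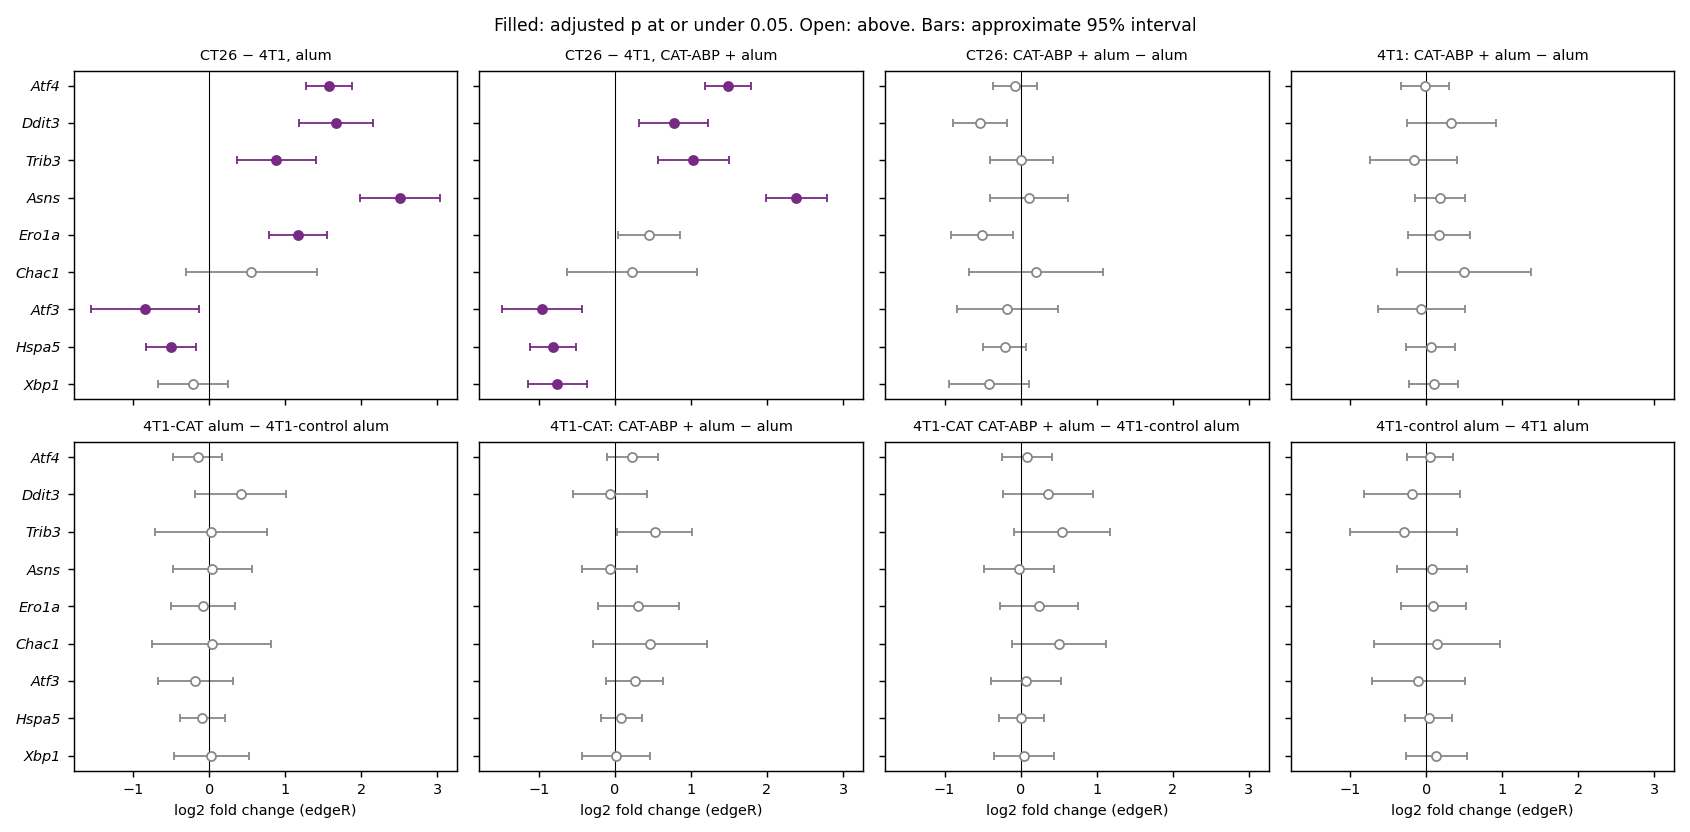
Log2 fold change by edgeR (x axes) of the 9 tested genes in 8 comparisons of 2 groups, with approximate 95% intervals as bars; filled points passed an adjusted p of 0.05 and open points did not. Filled points occur in the panels that compare CT26 with 4T1, and none in the panels on catalase or on the engineered control.

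The pathway around these genes was followed in 112 further genes in 10 lists. In CT26 against 4T1, 46 were higher and 9 lower of 101 tested under alum (54.5%, beside 42.4% of all genes), with a median log2 difference of 0.40 beside 0.02 over all genes. Under CAT-ABP + alum 37 were higher and 16 lower of 101 (52.5%, beside 45.5%), with a median of 0.26 beside -0.02. The lists were drawn up with results of these data known and are given as counts. In the 5 catalase comparisons 0 of the 112 genes passed by edgeR, with 2 to 15 at an unadjusted p under 0.05. For EC CAT these were 2 of 100 tested in CT26 and 6 of 99 in 4T1, beside 2.42 and 2.88% of all genes. For IC CAT they were 4 of 98, beside 5.08%. For EC CAT in 4T1-CAT they were 10 of 101, beside 15.3%, and for both catalases 15 of 100, beside 16.9%.

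Enzymes of amino acid synthesis and one-carbon metabolism were higher in CT26 for 9 of 12 tested under alum and for 9 of 11 under CAT-ABP + alum. Over all genes tested, 21.3% were higher in CT26 under alum and 21.8% under CAT-ABP + alum, for comparison with this and the next lists. Aldh1l2, a mitochondrial folate enzyme, was at 29.6 ± 5.66 CPM in CT26 and 1.57 ± 0.753 CPM in 4T1 under alum (SD, n = 5 each, adjusted p = 8.73e-09). Mthfd2, also of mitochondrial folate metabolism, was 4.63-fold higher (adjusted p = 1.89e-08) and Phgdh, the first enzyme of serine synthesis, 2.72-fold higher (adjusted p = 3.03e-07). Cth, which makes cysteine from cystathionine, went the other way, at 0.146 ± 0.258 CPM in CT26 and 8.13 ± 0.960 CPM in 4T1 (adjusted p = 5.72e-07).

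Cytosolic aminoacyl-tRNA synthetases, which load tRNAs with amino acids, were higher in CT26 for 10 of 12 under alum and 9 of 12 under CAT-ABP + alum, with Yars lower in both. Wars, also induced by interferon, was 5.04-fold higher under alum (adjusted p = 1.63e-07) and Lars 3.21-fold higher (adjusted p = 3.82e-07). Amino acid transporters were higher for 4 of 7 in each comparison, led by the glutamine carrier Slc1a5 (2.53-fold under alum, adjusted p = 8.1e-06). Among regulators and targets of ATF4 and CHOP, 4 of 8 tested were higher under alum and 6 of 8 under CAT-ABP + alum. Vldlr, a lipoprotein receptor, was at 50.7 ± 10.8 CPM in CT26 and 2.02 ± 0.722 CPM in 4T1 under alum (adjusted p = 1.84e-09). Atf5, a factor related to Atf4, was 6.68-fold higher under alum (adjusted p = 8.45e-09) and Eif4ebp1, a brake on cap-dependent translation, 3.52-fold higher (adjusted p = 3.24e-08), whereas Gadd45a, a growth arrest gene, was 4.95-fold lower (adjusted p = 3.6e-08).

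Upstream of ATF4, 2 of 7 eIF2 alpha kinases and regulators were higher under alum, and 1 was higher and 1 lower under CAT-ABP + alum. The share that passed was below that of all genes tested in each comparison, 42.4% and 45.5%. Ppp1r15a, the stress-induced subunit that dephosphorylates eIF2 alpha, was 2.87-fold higher in CT26 under alum (adjusted p = 7.2e-06) and 2.35-fold higher under CAT-ABP + alum (adjusted p = 0.000138). Eif2ak2, the kinase PKR that senses double-stranded RNA, was higher under alum (log2 difference 0.66 ± 0.16, adjusted p = 0.00295), with 0.01 ± 0.31 under CAT-ABP + alum (adjusted p = 0.989). Eif2ak4, the amino acid sensor GCN2, was lower under CAT-ABP + alum (-0.65 ± 0.19, adjusted p = 0.00833), with -0.42 ± 0.26 under alum (adjusted p = 0.216). Eif2ak3, which encodes the ER-resident kinase PERK, differed by 0.15 ± 0.23 on the log2 scale under alum (adjusted p = 0.636). Mitochondrial stress genes were higher for 5 of 7 under alum and 3 of 8 under CAT-ABP + alum, among them the mitochondrial chaperone Hspa9 (2.29-fold under alum, adjusted p = 7.16e-06).

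Of the ER chaperones and folding enzymes, under alum 4 of 15 were higher in CT26 and 1 lower, and under CAT-ABP + alum 1 was higher and 3 lower. Hsp90b1, the ER member of the HSP90 family, was at 1442 ± 107 CPM in CT26 and 1017 ± 98.7 CPM in 4T1 under alum (n = 5 each, adjusted p = 0.0154), and under CAT-ABP + alum the estimate was 0.29 ± 0.13 (adjusted p = 0.0862). Fkbp11, a prolyl isomerase of the ER, was higher in both (0.83 ± 0.25, adjusted p = 0.0143, and 0.92 ± 0.20, adjusted p = 0.00127). Canx, the lectin chaperone calnexin, was lower in both, 1.4-fold under alum (adjusted p = 0.0181) and 1.5-fold under CAT-ABP + alum (adjusted p = 0.000734). Of 17 tested XBP1 targets and degradation genes, 4 were higher and 1 lower under alum, and 1 was higher and 2 lower under CAT-ABP + alum. Of 8 sensors and processing genes, Atf6 was higher and Mbtps1, the protease that cleaves ATF6, lower in both. The share that passed among chaperones, XBP1 targets and sensors was below that of all genes in both comparisons. Over all genes it was 42.4% under alum and 45.5% under CAT-ABP + alum. Cytosolic heat shock genes were split, with 3 higher and 3 lower of 8 under alum and 2 higher and 5 lower of 8 under CAT-ABP + alum. Their share that passed was above that of all genes.

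**Figure D3:**
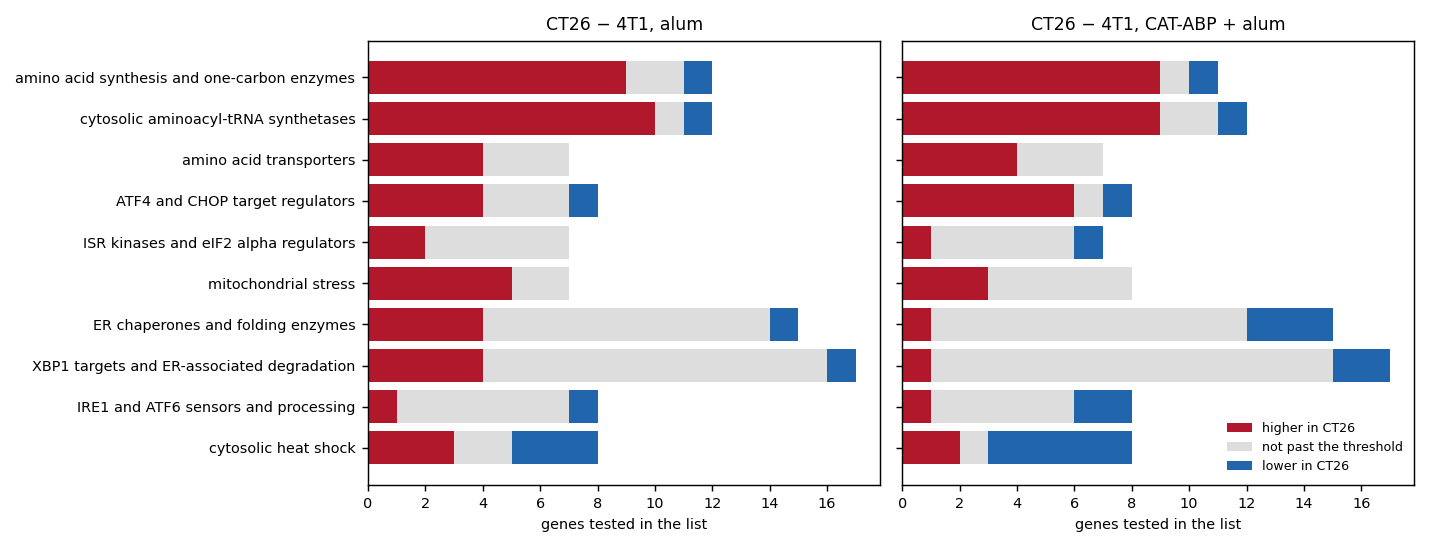
Number of tested genes (x axis) in 10 pathway lists that were higher in CT26 (red), lower in CT26 (blue) or not past an adjusted p of 0.05 (gray), under alum (left) and under CAT-ABP + alum (right). The red bars are longest for amino acid synthesis enzymes, with 9 genes in each panel, and for aminoacyl-tRNA synthetases, with 10 and 9.

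Markers of some other cells differed between CT26 and 4T1 under alum, where 42.4% of all genes tested passed. For macrophage, neutrophil, endothelial and skeletal muscle markers the share that passed was lower than that. Summed CPM of 8 T and NK cell markers was 430 to 641 in CT26 and 36.9 to 44.8 in 4T1 under alum, with 7 of 7 tested genes higher in CT26. Macrophage markers (7 genes, 2 higher and 0 lower) were at 792 to 1247 and 683 to 801 CPM, fibroblast markers (7 genes, 1 higher and 4 lower) at 1353 to 2666 and 2344 to 2850 CPM, and neutrophil markers (6 genes, 1 higher and 1 lower) at 63.5 to 109 and 159 to 231 CPM. Of 9 B and plasma cell markers, 4 of 4 tested were higher in CT26, and Cd79a was at 0 in every group. Of 6 endothelial markers 1 of 5 tested was lower, and of 6 skeletal muscle and 5 adipocyte markers 1 each was higher. Their part in the differences of the stress genes was not tested.

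Neither form of catalase moved any of the 9 tested genes past the threshold. Of 45 estimates (9 genes in 5 catalase comparisons), 0 passed by edgeR and 0 by DESeq2, and 3 had an unadjusted p under 0.05. By edgeR, 0% of all genes passed for EC CAT in CT26, EC CAT in 4T1, IC CAT in 4T1 and EC CAT in 4T1-CAT. The share was also 0% for both interactions, and 0.0235% for both catalases against 4T1-control. Those 3 genes, named because they are so few, were Glg1, Rpl19-ps11 and Gm38194. By unadjusted p under 0.05 the numbers over all genes were 311, 377, 637, 2000 and 2162 in the 5 comparisons in the order given. These are 2.42, 2.88, 5.08, 15.3 and 16.9% of the genes tested. DESeq2 called 1, 0, 6, 249 and 510 genes. The study, by DESeq2, reported more genes at an adjusted p of 0.05 or less for EC CAT in CT26 and for IC CAT. Among the former were the hypoxia-responsive genes Aldoa, Pgk1 and Car9.

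In CT26, EC CAT gave lower estimates for Ddit3 and Ero1a. Ddit3 was at 22.1 ± 4.95 CPM under alum (SD, n = 5) and 15.03 ± 0.963 CPM under CAT-ABP + alum (n = 6), and the values listed above do not overlap between the groups. The log2 fold change was -0.53 ± 0.16, with an approximate 95% interval of -0.88 to -0.18, an unadjusted p of 0.0038 and an adjusted p of 1.0 by edgeR. Ero1a was at 94.2 ± 11.7 and 66.0 ± 18.2 CPM, with 5 of 6 treated tumors below all alum tumors, a log2 fold change of -0.51 ± 0.18 and an adjusted p of 1.0. Hspa5 was at 571 ± 62.5 and 495 ± 19.4 CPM and its groups did not overlap, with a log2 fold change of -0.21 ± 0.13 and an interval of -0.49 to 0.07. Groups that do not overlap were seen in 2 of the 9 genes and in 0.296% of all genes tested in this comparison. The gap of Hspa5 was narrow, with the highest treated tumor at 510.2 CPM and the lowest alum tumor at 513 CPM. Its unadjusted p was 0.115 by edgeR.

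By the same exact permutation test, Ddit3 and Hspa5 in CT26 reached p = 0.00216, the smallest that 6 against 5 tumors can give. Groups that do not overlap lead to such a value, so it adds little to that separation. Ero1a gave p = 0.0216. These p-values are unadjusted and come from 80 such tests of 10 genes in 8 comparisons. Of the 80, 22 were at or under 0.05, 7 of them among the 50 on catalase. The other 6 tested genes in CT26 had estimates from -0.41 (Xbp1) to 0.20 (Chac1), and the interval of Atf4 was -0.36 to 0.22. The summed CPM of 14 hypoxia genes was 4303 to 5352 in CT26 tumors under alum and 3282 to 4999 under CAT-ABP + alum. All 12 hypoxia genes tested had lower estimates under EC CAT (median log2 difference -0.43), 7 with an unadjusted p under 0.05 by edgeR. Of the 12, 0 passed the threshold by edgeR. Over all genes tested the median was -0.004, and 2.42% had an unadjusted p under 0.05 by edgeR. The hypoxia list, too, was chosen with results of these data known, and the study had reported lower hypoxia-responsive genes in these CT26 tumors. Its counts are therefore a description and not a test. The part of the hypoxia genes in the values of Ddit3 and Ero1a was not tested.

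In 4T1, EC CAT gave estimates between -0.16 (Trib3) and 0.50 (Chac1), with no unadjusted p below 0.215. All 6 treated tumors and 2 of the 5 alum tumors carried the first index tags of the CT26 tumors. Treatment and tag are therefore partly confounded in this comparison. The levels of Ddit3 and Ero1a, 6.82 ± 1.47 and 42.2 ± 9.06 CPM under alum, were 8.42 ± 2.96 and 47.0 ± 10.4 CPM under CAT-ABP + alum. The difference in the response of the lines was -0.88 ± 0.29 for Ddit3 and -0.69 ± 0.27 for Ero1a on the log2 scale, both with an adjusted p of 1.0 by edgeR and unadjusted p of 0.00619 and 0.0153. It is therefore not shown that the lines responded differently.

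IC CAT, in 4T1-CAT against 4T1-control tumors under alum, gave estimates between -0.18 (Atf3) and 0.41 (Ddit3) with intervals that all included 0. Asns was at 53.4 ± 13.5 CPM (n = 5) and 49.6 ± 22.6 CPM (n = 6), Atf4 at 68.9 ± 9.24 and 76.6 ± 9.24 CPM, and Hspa5 at 781 ± 37.3 and 827 ± 82.6 CPM. The ranges of the groups overlapped for all 3 genes. The interval of Hspa5, -0.38 to 0.20, was the narrowest of the comparison, and that of Chac1, -0.75 to 0.82, the widest.

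EC CAT added to 4T1-CAT tumors gave its largest estimate for Trib3. The tumors held 9.05, 7.03, 6.77, 6.53 and 4.34 CPM under alum and 7.26, 11.7, 12.1, 9.76 and 8.90 CPM under CAT-ABP + alum, and the groups overlapped. The log2 fold change was 0.52 ± 0.21 (unadjusted p = 0.0266, adjusted p = 0.272), higher than all alum tumors in 3 of 5 treated tumors. Against parental 4T1 the response differed by 0.69 ± 0.33 (adjusted p = 0.564). Atf3, Atf4, Chac1 and Ero1a had estimates from 0.23 to 0.46, and none passed. By exact permutation the unadjusted p was 0.0238 for Trib3 and 0.0159 for Sesn2. Sesn2 had 3 to 6 counts in these treated tumors and 0 to 3 under alum.

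Both catalases against 4T1-control gave estimates from -0.02 (Asns) to 0.54 (Trib3), with adjusted p from 0.338 upward. The exact permutation test of Chac1 gave an unadjusted p of 0.0216, with 4 of 5 treated tumors above all control tumors. Control replicate 2, with a total of 493044 counts, had 0 counts of Trib3 and 1 of Chac1. Sesn2 had 4, 3, 3, 4 and 6 counts in the 5 tumors with both catalases and 0 or 1 in the 6 control tumors, whose totals were also lower (median 3523254 against 5339033 counts). An exact permutation test of log2 CPM gave p = 0.00216, but the control group lies under the floor of 3 counts and no fold is given. The engineered control did not differ from parental 4T1 under alum in any of the 9 genes past the threshold, beside 0% of all genes tested by edgeR, 1307 genes with an unadjusted p under 0.05 and 16 called by DESeq2. Its estimates ran from -0.30 (Trib3) to 0.14 (Chac1). All 6 of its tumors and 3 of the 5 parental tumors carried first index tags other than those of the CT26 tumors. Group and tag are therefore partly confounded here as well.

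Within groups, after the mean of each group was subtracted from log2 CPM over the 38 tumors, the 9 tested genes varied in how far they moved together. The highest correlations among them were between Atf4 and Chac1 (r = 0.57), Trib3 and Asns (r = 0.56) and Atf4 and Xbp1 (r = 0.54). The lowest was between Trib3 and Hspa5 (r = -0.48). Depth moved with some of them: the correlation with the log2 total of the tumor was 0.71 for Trib3, 0.55 for Chac1 and 0.45 for Asns, and -0.57 for Hspa5. These correlations describe tumors that share the method of library preparation but not depth, with totals from 493044 to 9077549 counts. The part of depth in them was not tested, and no test is attached.

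The genes most like each one in this measure, among 6165 or 6166 genes at a mean of 20 CPM or more, were mostly not of the pathway. For Ero1a they were Ndrg1 (r = 0.86), Slc2a1, the glucose transporter GLUT1 (r = 0.81), and Hmox1, heme oxygenase (r = 0.77). Ndrg1 and Slc2a1 were on the list of hypoxia genes. For Atf4 they were Nup50, Fem1b and Gm17122 (r = 0.82, 0.81 and 0.80), for Ddit3 Cfl1, Usp7 and Wbp2 (0.57, 0.55 and 0.52), and for Asns Eldr, Pcna and Tmem128 (0.86, 0.86 and 0.85). For Trib3 they were Bap1, Maff and Derl1 (0.87 each), for Chac1 Me1, Tfdp1 and Prdm4 (0.80, 0.80 and 0.77), and for Atf3 Rps6ka1, Shisa5 and Tapbp (0.84, 0.80 and 0.80). For Hspa5 they were Sdccag8, Ppig and Map4k4 (0.80, 0.80 and 0.79), and for Xbp1 Akap13, 1600014C10Rik and Sfrp1 (0.85, 0.76 and 0.76). Ddit3, Atf3, Trib3, Chac1 and Sesn2 had a mean under 20 CPM and could not be named here. Trib3 was at 0 counts in 4T1-control replicate 2, and Chac1 in 4T1 replicate 4 under CAT-ABP + alum. These tumors had totals of 493044 and 837403 counts, and their part in the correlations was not tested.

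**Figure D4:**
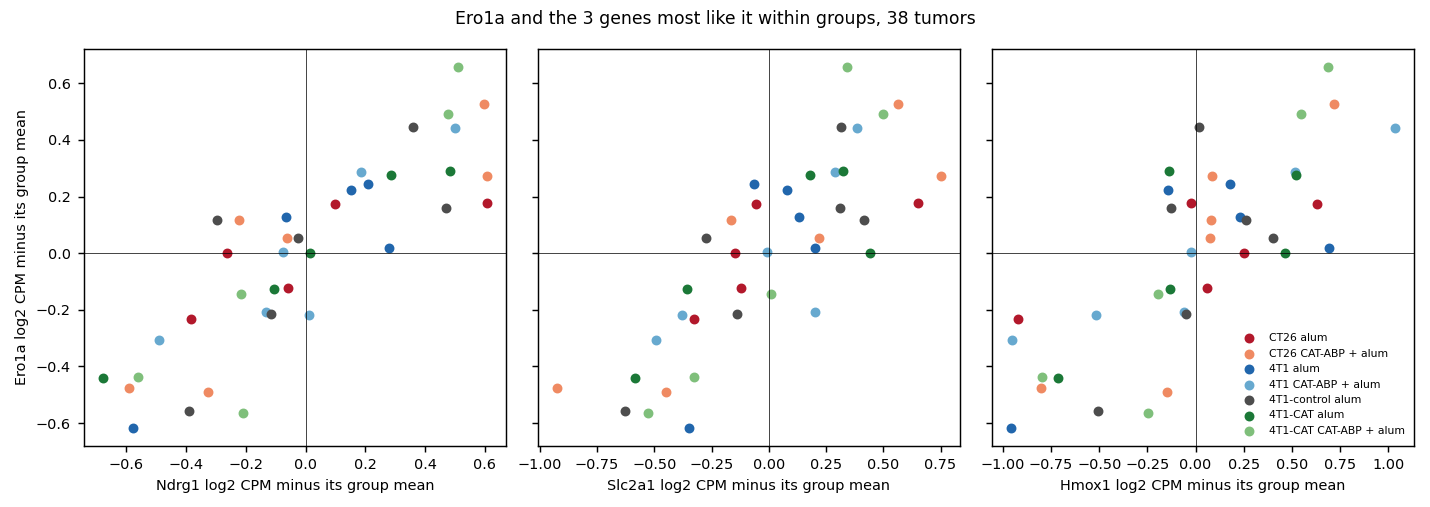
Deviation of Ero1a from its group mean (y axis, log2 CPM) against that of Ndrg1, Slc2a1 and Hmox1 (x axes, log2 CPM) in 38 tumors, colored by group. Tumors above their group mean in Ndrg1 tended to be above it in Ero1a, with r = 0.86 for Ndrg1, 0.81 for Slc2a1 and 0.77 for Hmox1.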

How the data were processed

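RNA of whole tumors was sequenced by 3′ digital gene expression, a plate-based method related to SCRB-seq. The authors deposited estimated counts per gene and library (39.7% of non-zero values were not whole), made with a Smart-seq2 pipeline; aligner, build, strand setting and use of molecular identifiers are not given in the sources used here. Genes that share sequence with a copy may therefore hold split reads. Deposited gene symbols were joined by gene ID. Where 2 IDs shared a symbol (Ddit3), the ID with counts was used; the other was at 0.

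The 2 technical libraries of each tumor were summed and rounded. The study left out some technical libraries that it does not name; all 76 were kept here, from 46233 to 6958626 counts. edgeR 4.0.16 (TMM, filterByExpr, quasi-likelihood test, Benjamini-Hochberg over all genes tested) was fitted in R 4.3.3 on the 2 groups of each comparison, checked on simulated data, with SE taken as the fold change over the root of F and approximate intervals from it. DESeq2 1.42.0 was an alternative. Single genes were also compared by exact permutation of log2 CPM (prior count 2). The p-value is the share of all splits of the tumors that give a difference in means at least as large. A floor of 3 counts was set as a fixed number and not computed from these data. Gene positions are from GENCODE M21 (GRCm38), promoters from RefSeq.

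The genes and lists were chosen with earlier results of these data known. Named were the 10 genes, up to 3 list genes per direction with the smallest adjusted p past the threshold, of which a part is printed, and the 3 genes most correlated with each within groups; Eif2ak3, Mars1 and the 3 genes past the threshold under both catalases were named after their values were seen. Alternatives were RLE scaling, DESeq2, no filter, 1 model over all groups, a replicate block, the first index tag, each technical replicate alone, removal of low-depth libraries and removal of each tumor. The design had named counts; estimated counts were found and rounded.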

Additional observations from a re-analysis of the deposited data

Results flagged for a closer look

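Among 70 sets of 1 gene in 1 group, 5 held a tumor that stood apart from the others of its group by Dixon's 95% criterion, where chance alone flags about 1 in 20. In 4T1 tumors under CAT-ABP + alum, replicate 4 was at 0 CPM for Chac1, against 4.21 to 6.56 CPM in the others, and at 1079 CPM for Hspa5, against 751 to 867 CPM. That tumor had 837403 counts, the lowest total of its group. In 4T1-control tumors, replicate 2 was at 2.19 CPM for Chac1 (1 count), against 3.37 to 3.96 CPM, with the lowest total of all tumors, 493044 counts. In CT26 tumors under CAT-ABP + alum, replicate 4 was at 457 CPM for Hspa5, against 494 to 510.2 CPM. In 4T1-CAT tumors under alum, replicate 2 was at 0.586 CPM for Sesn2 (3 counts), against 0 to 0.168 CPM. Without 4T1 replicate 4, the log2 difference of Hspa5 between CT26 and 4T1 under CAT-ABP + alum was -0.70.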

How the results depend on the processing

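The number of stress genes past the threshold stayed within 1.5 times its main value in all comparisons and alternatives. It was 0 in every catalase comparison, and 5 to 7 under alum and 6 to 8 under CAT-ABP + alum for CT26 against 4T1. No sign was reversed. Single calls of CT26 against 4T1 moved for Hspa5 and Trib3 under alum, Atf3 under alum (lost with either technical replicate alone, adjusted p up to 0.0754, and with 6 of 10 tumors), Ddit3 under CAT-ABP + alum (lost with technical replicate 2 alone, 0.60, adjusted p = 0.0983) and Ero1a, which passed in 5 of 8 alternative settings and with 4 of 12 tumors left out in turn. Xbp1 lost its call over the 7 groups with the index tag as a factor and with technical replicate 1 alone.

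Counts over all genes moved more. DESeq2 called 1 gene for EC CAT in CT26, 6 for IC CAT, 249 for EC CAT in 4T1-CAT, 510 for both catalases and 16 for the engineered control. Without a filter the counts were 1 for EC CAT in CT26, 16 in 4T1, 131 for IC CAT, 47 in 4T1-CAT, 532 for both catalases, 130 for the engineered control, and 2 and 1 for the interactions. With 1 model over all groups they were 31 for both catalases and 10 for the engineered control, and without low-depth libraries 142 and 14. Only tumors with shared index tags gave 1 for the engineered control. Technical replicate 1 alone gave 0 and replicate 2 alone 1 for both catalases. Replicate 2 alone gave 4865 genes over the 7 groups, and 2849 and 3559 for CT26 against 4T1. When single tumors were left out, counts ran from 0 to 1 for IC CAT and for EC CAT in 4T1-CAT, from 0 to 6 for the engineered control and from 0 to 575 for both catalases, highest without 4T1-control replicate 3 and 131 without replicate 2. The cause was not tested.

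Replicate numbers did not pair the tumors (correlations of same-numbered tumors from -0.29 to 0.33). With the replicate number as a block, 3 genes passed for EC CAT in 4T1-CAT and 1 for both catalases, and Ero1a passed under CAT-ABP + alum (0.41, adjusted p = 0.0261). Index tag alternatives could not be fitted where both groups had the same tags, nor, for shared tags alone, over the 7 groups and for the second interaction. Depth limited Sesn2, with 24 of 38 tumors at or under 3 counts. The 2 libraries of a tumor differed by a median of 0.88 on the log2 scale for Chac1, against 0.24 for Atf4.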
